A study of Homo sapiens with 12 samples.

Results

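The comparison described here is between 2 guide RNAs that target the same gene, WRN, in 1 cell line. It uses the OVK18 libraries made after transduction with sgWRN2 and with sgWRN3, 2 libraries of each, which are 4 of the 12 libraries of the series. They were chosen by the cell line and guide that their labels name. The series holds RNA-seq libraries from Cas9-expressing OVK18 and SW48 cells, harvested 72 hours after transduction with sgCh2-2, sgWRN2 or sgWRN3, with 2 libraries, lettered A and B, for each line and guide. OVK18 is an ovarian carcinoma line and SW48 a colorectal carcinoma line, and both are known for microsatellite instability. sgCh2-2 is, by its name and in the published study, a control guide that lets Cas9 cut at a site on chromosome 2 outside genes. All 6 groups therefore share Cas9 and a cutting guide, and no group is free of transduction. The 2 OVK18 sgCh2-2 libraries serve as the reference level, and the 4 SW48 libraries with sgWRN2 or sgWRN3 show the same pair of guides in another line. The labels do not say whether the lettered libraries came from separate cultures. The p-values therefore measure only the spread between lettered libraries, pooled over all 12 of both lines, and that spread may be technical.

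WRN encodes a RecQ-family DNA helicase that unwinds unusual DNA structures at replication forks. Cells with defective mismatch repair carry expanded repeats that depend on WRN, and losing it there is known to cause double-strand breaks, cell cycle arrest and death. A pair of guides against the same gene is used so that changes seen with both can be assigned to that gene. Guides can still differ in how often and where they cut, and no measure of cutting was analysed here.

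The 6 OVK18 libraries held 17600573 to 32581625 counts, with sgWRN2 B the smallest. Levels are given as CPM, counts scaled to a common library size with TMM normalisation, and differences as log2 fold changes of sgWRN2 over sgWRN3 unless another pair is named. The label was checked against marker genes. HOXA10 and HOXA11, homeobox genes of the female reproductive tract, were at 29.5 to 36.2 CPM and 37.6 to 45.8 CPM in the 6 libraries. PAX8, a Müllerian transcription factor, had 1 count in 1 library, WFDC2 had none, and the epithelial adhesion gene EPCAM was at 0.219 to 0.698 CPM. In bulk RNA, a change in the share of cells of a kind and a change of RNA per cell cannot be told apart.

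WRN mRNA did not differ between the guides beyond the spread of the libraries. It was at 32.0 and 39.8 CPM in the sgCh2-2 libraries A and B, at 22.0 and 21.0 CPM with sgWRN2, and at 22.2 and 23.0 CPM with sgWRN3. All 4 WRN-guide libraries were below both controls, and the 2 guides lay next to each other. The log2 fold change of sgWRN2 over sgWRN3 was -0.07 (standard error, SE, 0.16), with an edgeR quasi-likelihood adjusted p of 0.908. Against the control, neither guide's WRN level passed the test (log2 fold change -0.74, SE 0.16, adjusted p = 0.0658 for sgWRN2, and -0.67, SE 0.16, for sgWRN3). The mRNA level does not measure how much working protein was left.

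The guides nevertheless gave different RNA profiles. Of 14199 genes tested, 106 differed between sgWRN2 and sgWRN3 at an adjusted p under 0.05 (0.747% of genes tested). In sgWRN2, 62 were higher (0.437%) and 44 lower (0.31%), and over all genes the median log2 fold change was -0.01. With size factors by the RLE method the split was 79 higher and 33 lower. Beyond 2-fold were 31 of the 62 higher and 7 of the 44 lower genes. These counts cannot be compared directly, since 16 of the higher and 0 of the lower genes had a control mean under 0.3 CPM, from which a gene can hardly fall and may pass the filter only where it is high.

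The called genes were placed as follows, which describes genes chosen by this contrast and tests nothing. Both sgWRN2 libraries were outside the range of the other 4 OVK18 libraries for all 106 genes, a placing that 14.4% of all genes tested had on the high side and 15.8% on the low side. The sgWRN2 and sgWRN3 libraries did not overlap for 40.5% of all genes tested. Against sgCh2-2, sgWRN2 called 113 genes (0.796%), 76 higher (0.535%) and 37 lower (0.261%). sgWRN3 called 0 genes (0%) by edgeR, 1 by DESeq2 and 0 by limma-voom. By edgeR, 116 of 14199 genes had an unadjusted p under 0.05, a smaller share than that threshold gives where nothing differs. The test may be strict here, and the lack of calls does not show that sgWRN3 matched the control. Both comparisons with sgCh2-2 share the control libraries, so their values are given side by side only. The 62 genes higher in sgWRN2 than in sgWRN3 had a median log2 fold change over control of 1.07 with sgWRN2 and 0.03 with sgWRN3, and 56 of them were called against control with sgWRN2. The 44 lower genes had medians of -0.64 with sgWRN2 and 0.08 with sgWRN3, and 23 were called with sgWRN2. The count of 106 depended on single libraries: it was 11 without sgWRN3 A, 27 without sgWRN3 B and 52 without sgWRN2 B.

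**Figure D1:**
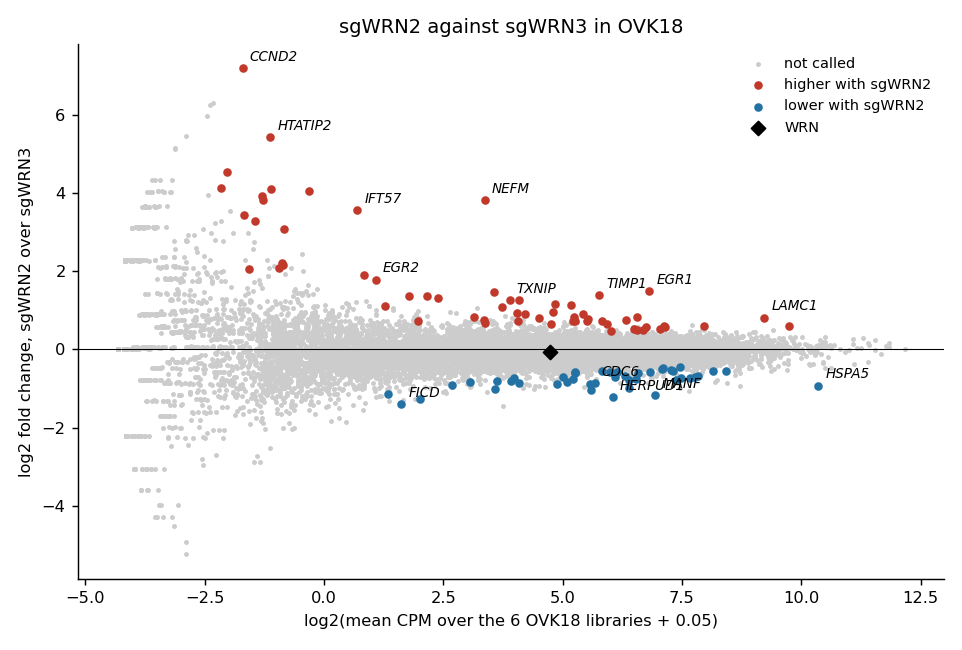
Each point is 1 of the 14199 genes tested, with the log2 of its mean CPM over the 6 OVK18 libraries (plus 0.05) on the x axis and the log2 fold change of sgWRN2 over sgWRN3 on the y axis. The 62 red points (higher with sgWRN2) include genes near silence at the upper left, and the 44 blue points are lower with sgWRN2, and WRN (black diamond) sits at -0.07.

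The first group that separated the guides was the immediate-early transcription factors, genes that serum, growth factors and stress switch on within minutes through kinases such as ERK and the transcription factor SRF. EGR1, EGR2 and EGR3, related zinc finger factors of this class, rose with sgWRN2. A known route to their induction is the CArG box, the site that SRF binds, made of a pair of C and a pair of G around a run of A and T. The promoters of EGR1 and EGR2 are shown because both hold this motif within 250 bases before and 50 after the start that RefSeq gives (GRCh38.p14), capitals marking it. The EGR1 window is chr5:138465354-138465425 on the plus strand, with matches at -105 and -83 from the start, and the EGR2 window is chr10:62816408-62816457 on the minus strand, with a match at -71.
EGR1: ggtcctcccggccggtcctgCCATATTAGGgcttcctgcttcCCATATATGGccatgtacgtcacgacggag
EGR2: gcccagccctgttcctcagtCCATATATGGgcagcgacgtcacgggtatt
Searched on both strands, the CArG box was in 1.51% of 10309 tested genes with a promoter in the table. On the immediate-early list, 3 of 20 such genes held it: EGR1, EGR2 and SRF itself. EGR3 had no promoter in the table and was not searched. A match is a description of the letters and no evidence of binding.

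EGR1 was at 68.3 and 66.7 CPM in the control libraries, at 207 and 192 CPM with sgWRN2, and at 72.9 and 69.5 CPM with sgWRN3. Both sgWRN2 libraries stood far above the other 4, which lay close together. The log2 fold change between the guides was 1.49 (SE 0.09, adjusted p = 2.07e-05).

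EGR2 was at 0.932 and 0.929 CPM with sgCh2-2, 4.59 and 3.56 CPM with sgWRN2, and 1.31 and 1.09 CPM with sgWRN3 (guide difference 1.78 in log2, SE 0.24, adjusted p = 0.00701). EGR3 was at 1.09 and 1.42 CPM, 4.49 and 3.51 CPM, and 2.00 and 1.75 CPM in the same order (1.11, SE 0.19, adjusted p = 0.0166). Neither gene's groups overlapped, and both were low throughout. EGR2 lost its call without either sgWRN3 library, and EGR3 without sgWRN2 A or either sgWRN3 library.

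Of 29 immediate-early genes tested, these 3 were higher (0.437% of all genes tested were) and 0 lower. At an unadjusted p under 0.05, 15 were higher (6.25% of all genes were). The list's median log2 fold change was 0.48, against -0.01 over all genes. JUN, which pairs with FOS in the AP-1 factor, was at 10.9 and 10.5 CPM with sgCh2-2, 15.9 and 15.5 CPM with sgWRN2, and 9.41 and 10.7 CPM with sgWRN3, and missed the threshold (0.64, SE 0.14, adjusted p = 0.0658). JUNB (0.70, adjusted p = 0.0670), FOS (0.67, adjusted p = 0.0713) and NR4A2 (0.69, adjusted p = 0.0661) also missed it. Among 22 genes of negative MAPK feedback, such as the ERK phosphatase DUSP6 and the Sprouty gene SPRY4, 0 were called by edgeR. The median of the 22 was 0.09. At an unadjusted p under 0.05, 4 were higher (6.25% of all genes were) and 1 lower (8.25%). SPRY4 was at 291 and 316 CPM with sgWRN2 against 260 and 243 CPM with sgWRN3 (0.27, adjusted p = 0.205), and DUSP6 stayed under 0.5 CPM in all 6 libraries.

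Some further called genes were picked by hand after their values were seen and do not form a tested group. NAB2, a corepressor of the EGR factors, was at 69.9 and 83.8 CPM with sgWRN2 and at 49.7 and 42.8 CPM with sgWRN3 (0.73, adjusted p = 0.0490), and it lost its call in 14 of 26 alternatives. TRIB1, a pseudokinase that binds MEK, was at 51.8 and 50.4 CPM against 31.3 and 26.9 CPM (0.81, adjusted p = 0.00701). BRAF, the kinase above MEK, was at 65.2 and 63.3 CPM against 38.7 and 37.1 CPM (0.76, adjusted p = 0.00964). In all of these the sgWRN2 libraries were also above both controls. RASA2, a GTPase-activating protein that turns RAS off, was at 63.8 and 50.9 CPM against 25.1 and 27.5 CPM (1.13, SE 0.17, adjusted p = 0.0114). KSR2, a scaffold of the same kinase cascade, went the other way, at 1.47 and 1.53 CPM against 3.31 and 3.30 CPM (-1.14, SE 0.18, adjusted p = 0.0146), and lost its call in 10 of 26.

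**Figure D2:**
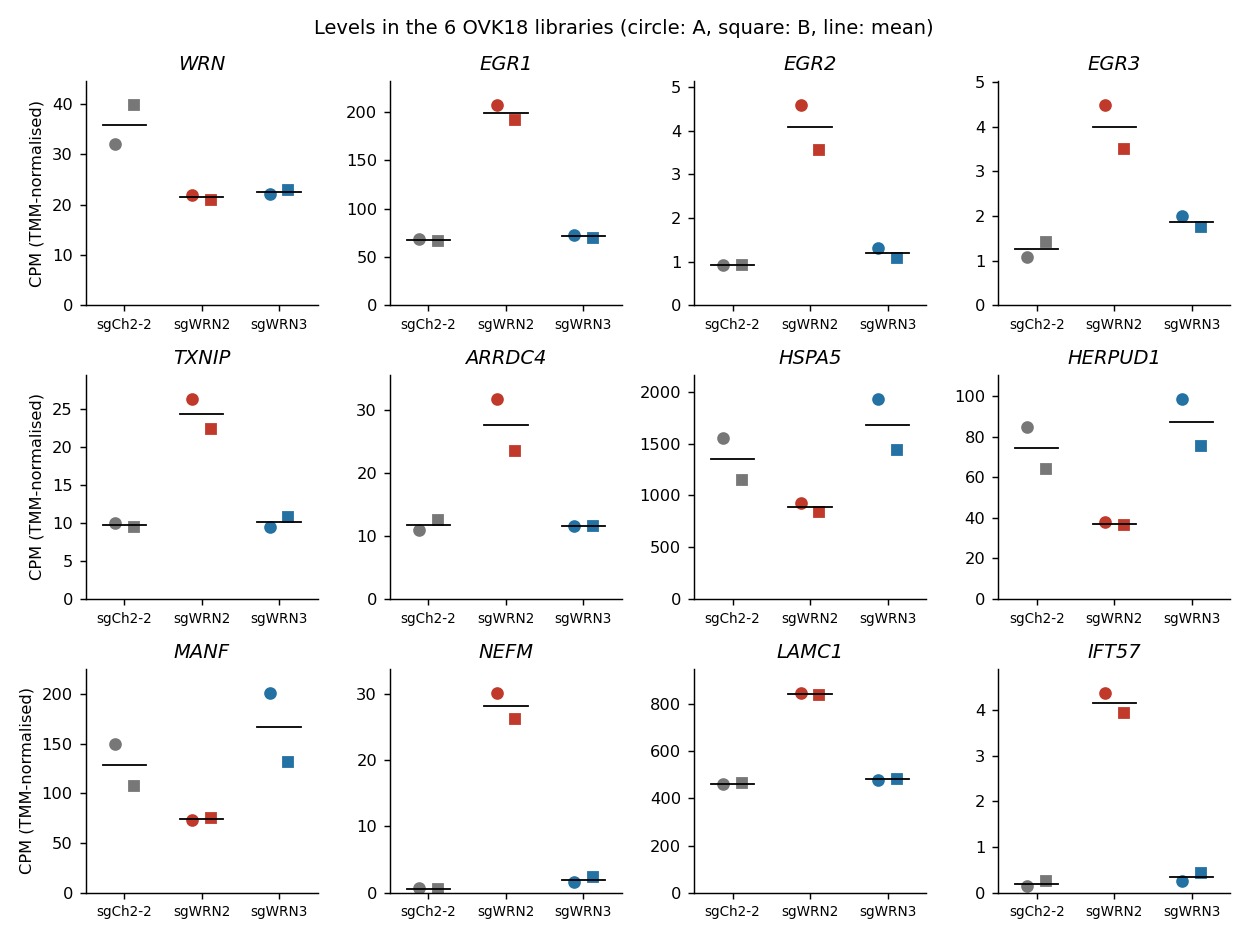
Each panel plots 1 gene's CPM (linear axis from 0) in the 6 OVK18 libraries by guide, with circles for library A, squares for B and a line at the mean of 2. For EGR1 the sgWRN2 libraries sit at 207 and 192 CPM and the other 4 at 66.7 to 72.9, while for WRN the 2 guides sit together at 21.0 to 23.0.

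The second group was the chaperones and folding factors of the endoplasmic reticulum (ER), the targets of the unfolded protein response, in which ATF6 and spliced XBP1 raise folding capacity when misfolded protein collects in the ER. Of 22 genes tested, 7 were lower with sgWRN2 than with sgWRN3 (0.31% of all genes tested were) and 0 higher. The 7 were HSPA5, HERPUD1, MANF, CRELD2, XBP1, DNAJB11 and DNAJC3. At an unadjusted p under 0.05, 19 were lower (8.25% of all genes were) and 1 higher. The list's median log2 fold change was -0.59. Without sgWRN3 A, 0 of the 22 passed edgeR's test and the median was -0.37.

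HERPUD1, part of the machinery that removes misfolded ER proteins, was at 84.7 and 64.2 CPM with sgCh2-2, 38.0 and 36.2 CPM with sgWRN2, and 98.6 and 75.4 CPM with sgWRN3 (-1.23, SE 0.15, adjusted p = 0.00439). Both sgWRN2 libraries were under the other 4, and it was the only member called against control as well (0.499 times the control level, adjusted p = 0.00992). It kept its call in 25 of 26 alternatives, the exception being the fit without sgWRN3 A (adjusted p = 0.0549).

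HSPA5, which encodes BiP, the main ER chaperone, was at 1556 and 1150 CPM with sgCh2-2, 928 and 841 CPM with sgWRN2, and 1932 and 1436 CPM with sgWRN3 (-0.93, SE 0.15, adjusted p = 0.0165). The sgWRN2 libraries were the lowest and sgWRN3 A the highest, and sgWRN3 B lay between the 2 controls. MANF, a small secreted ER stress protein, was at 149 and 107, 72.9 and 74.9, and 201 and 132 CPM in the same order (-1.17, SE 0.18, adjusted p = 0.0132). CRELD2, another ER-resident stress protein, was at 52.6 and 37.4, 31.3 and 34.0, and 81.8 and 53.1 CPM (-1.05, SE 0.20, adjusted p = 0.0353). For these 3 genes neither guide differed from control at the threshold. Their log2 fold changes over control were -0.61, -0.79 and -0.46 with sgWRN2 and 0.32, 0.38 and 0.58 with sgWRN3. Each lost its call without sgWRN3 A.

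The list's median was -0.36 over control with sgWRN2 and 0.22 with sgWRN3, and with sgWRN3 0 members were called against control by edgeR. Summed over the list, the level was 10140 and 8339 CPM in sgCh2-2 A and B, and 7911 and 7060 CPM with sgWRN2. With sgWRN3 the sums were 12260 and 9543 CPM, and that of sgWRN3 B lay between the 2 controls. Library A was above B with all 3 guides, and the gap between letters within sgWRN3 was larger than that between sgWRN2 A and sgCh2-2 B. XBP1, the transcription factor, was at 74.7 and 60.3 CPM with sgWRN2 and 127 and 101 CPM with sgWRN3 (-0.75, adjusted p = 0.0367). DNAJC3 and DNAJB11, co-chaperones of BiP, had log2 fold changes of -0.73 and -0.71 (adjusted p = 0.0428 and 0.0499). Calls were lost in 15 of 26 alternatives for XBP1, 17 for DNAJB11 and 15 for DNAJC3. HYOU1, a large ER chaperone (-0.94, adjusted p = 0.0668), and SEL1L, a scaffold of ER degradation (-0.64, adjusted p = 0.0530), missed the threshold. The sensors ATF6 (0.12) and ERN1 (0.50, adjusted p = 0.196) were the members with values above 0. FICD, which switches BiP off and on by adding and removing AMP, is not on the list and was called lower (-1.40, SE 0.28, adjusted p = 0.0438), at 1.72 and 1.48 CPM with sgWRN2 and 4.92 and 3.61 CPM with sgWRN3.

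Some promoters of these genes hold a known element, the ER stress element, CCAAT and CCACG with any 9 bases between them. A shorter form is ATTGG and CCACG with any 1 base between them. Of the 7 called members, all with a promoter in the table, 3 held the longer element and 1 the shorter form. MANF, DNAJB11 and DNAJC3 held neither. The called members' promoters with a match are printed. Capitals mark the element, which in CRELD2 lies on the opposite strand. Windows are from RefSeq promoters of GRCh38.p14: HSPA5 chr9:125241371-125241429 (minus strand), XBP1 chr22:28800583-28800641 (minus), CRELD2 chr22:49918534-49918592 (plus) and HERPUD1 chr16:56932005-56932055 (plus).
HSPA5: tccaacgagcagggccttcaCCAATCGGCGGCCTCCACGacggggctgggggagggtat
XBP1: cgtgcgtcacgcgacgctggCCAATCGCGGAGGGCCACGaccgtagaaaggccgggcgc
CRELD2: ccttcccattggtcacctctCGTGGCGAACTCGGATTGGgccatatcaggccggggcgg
HERPUD1: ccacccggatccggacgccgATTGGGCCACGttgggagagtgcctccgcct
On both strands, the longer element was in 7 of 21 list members with a promoter in the table and in 0.146% of the 10309 genes. Besides HSPA5, XBP1 and CRELD2 these were HSP90B1, CALR, CANX and PDIA6, which were not called between the guides. The shorter form was in 3 of 21 (HERPUD1, SDF2L1 and HYOU1) and also in 0.146% of genes.

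Other stress lists were read in the same way. Of 25 genes of the ATF4 amino acid response, 2 were lower (0.31% of all genes tested were) and 0 higher, with a median of -0.32. At an unadjusted p under 0.05, 10 were lower (8.25% of all genes) and 1 higher, and in 15 both sgWRN2 libraries were below the other 4 (15.8% of all genes). The called members were MTHFD2, a mitochondrial folate enzyme, and STC2, a secreted glycoprotein. MTHFD2 was at 184 and 146 CPM with sgWRN2 and 268 and 260 CPM with sgWRN3 (-0.68, adjusted p = 0.0286). STC2 was at 23.2 and 21.9 CPM against 38.0 and 35.9 CPM (-0.71, adjusted p = 0.0499). MTHFD2 lost its call in 11 of 26 alternatives and STC2 in 18. With the 6 OVK18 libraries alone, 0 of the list were called by edgeR. Of 18 cytosolic heat shock genes, 0 were called by edgeR, and the median was 0.17. At an unadjusted p under 0.05, 5 were higher (6.25% of all genes were) and 0 lower.

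**Figure D3:**
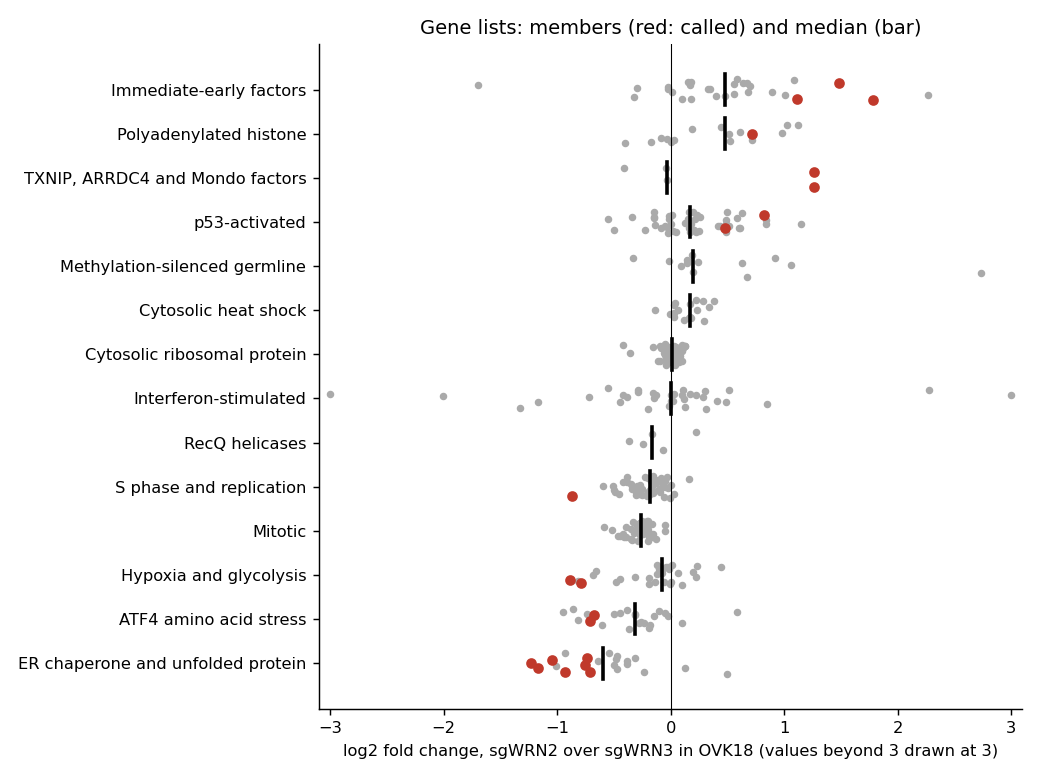
For 14 gene lists, each point is a member's log2 fold change of sgWRN2 over sgWRN3 in OVK18 (x axis; values beyond 3 are drawn at 3), red where called, and the black bar is the list's median. The ER chaperone list, with 7 red points, has the lowest median (-0.59) and the immediate-early list, with 3, the highest (0.48) together with the histone list.

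TXNIP and ARRDC4, arrestin-domain proteins that restrain glucose uptake and are both known targets of the glucose-sensing Mondo factors, rose with sgWRN2. TXNIP was at 9.98 and 9.47 CPM with sgCh2-2, 26.4 and 22.4 CPM with sgWRN2, and 9.54 and 10.8 CPM with sgWRN3 (1.26, SE 0.12, adjusted p = 0.000459). ARRDC4 was at 10.9 and 12.5 CPM, 31.7 and 23.5 CPM, and 11.5 and 11.6 CPM (1.26, SE 0.15, adjusted p = 0.00304). In both, the sgWRN3 libraries lay among the controls and the sgWRN2 libraries stood clear of all 4. These 2 were the called members of a list of 5 that also holds the Mondo factors (median -0.04), and both kept their call in all 26 alternatives. The TXNIP promoter is shown for its carbohydrate response element, the Mondo factors' site, searched as CACGNG and CNCGNG with any 5 bases between them on both strands and found at -88 (chr1:145996631-145996687, minus strand, capitals).
TXNIP: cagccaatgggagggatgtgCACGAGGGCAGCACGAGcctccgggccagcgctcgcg
That pattern was in 1.03% of the 10309 genes, and it was not found in the ARRDC4 window.

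Of 31 genes of low oxygen and sugar metabolism, 2 were lower (0.31% of all genes tested were) and 0 higher, with a median of -0.08. At an unadjusted p under 0.05, 7 were lower (8.25% of all genes) and 1 higher, and 23 of the 31 values were below 0. PDK1, the kinase that keeps pyruvate out of the citric acid cycle, was at 55.2 and 52.8 CPM with sgCh2-2, 29.4 and 33 CPM with sgWRN2 and 53.3 and 61.9 CPM with sgWRN3 (-0.89, SE 0.13, adjusted p = 0.00964). BNIP3, a mitophagy receptor, was at 117 and 105 CPM with sgWRN2 and 177 and 208 CPM with sgWRN3 (-0.79, SE 0.13, adjusted p = 0.0212). Both were under all 4 other libraries. EPAS1, which encodes HIF-2 alpha and is named here after its value was seen, was higher, at 24.3 and 25 CPM against 12 and 13.8 CPM (0.93, adjusted p = 0.00819).

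The other genes with the highest fold changes among those at 2 CPM or more were of mixed function. NEFM, the medium neurofilament, was at 0.660 and 0.619 CPM with sgCh2-2, 30.2 and 26.1 CPM with sgWRN2, and 1.57 and 2.41 CPM with sgWRN3 (3.81, SE 0.28, adjusted p = 5.91e-05). The sgWRN2 libraries stood far above the other 4, and sgWRN3 was also above both controls, without passing the test against them. The other 8 tested genes of the neuronal cytoskeleton list were not called, and its median was -0.13.

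TIMP1, an inhibitor of matrix metalloproteinases, was at 36.4 and 29.1 CPM with sgCh2-2, 85.9 and 101 CPM with sgWRN2, and 39.5 and 32.3 CPM with sgWRN3 (1.38, SE 0.18, adjusted p = 0.00701). VGF, a neuropeptide precursor, was at 6.80 and 8.38 CPM with sgWRN2 and 3.09 and 2.75 CPM with sgWRN3 (1.37, adjusted p = 0.0132). MED12L, a subunit of the Mediator kinase module, was at 20.8 and 20.2 CPM against 7.27 and 7.64 CPM (1.46, adjusted p = 0.00952). DGKH, a diacylglycerol kinase (1.15, adjusted p = 0.00701), FHDC1, a formin (1.35, adjusted p = 0.0315), and TSGA10, a centrosomal protein (1.31, adjusted p = 0.0174), completed that set. TIMP1 was 1 of 19 interstitial matrix genes tested to be called, and the list's median was 0.23.

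On the lower side, outside the ER genes, RNASE4, a secreted ribonuclease, was at 2.00 and 2.47 CPM with sgWRN2 and 5.36 and 5.28 CPM with sgWRN3 (-1.27, SE 0.19, adjusted p = 0.0115). FZD2, a Wnt receptor, was at 6.41 and 8.55 CPM against 16.3 and 13.6 CPM (-1.01, SE 0.20, adjusted p = 0.0490). TMEM50B, a membrane protein, was at 61.1 and 47.1 CPM against 112 and 103 CPM (-0.99, SE 0.14, adjusted p = 0.00740). The noncoding LINC01105 (-0.89, adjusted p = 0.0385) and LOC100506730 (-0.92, adjusted p = 0.0230) were also in this set. FICD lost its call in 16 of the 25 alternatives that gave it a value, and FZD2 in 21 of 26.

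Genes of p53, replication, mitosis and DNA repair, the pathways that WRN loss is best known for, were read next. Of 51 p53-activated genes, 2 were higher (0.437% of all genes tested were) and 0 lower, with a median of 0.17. At an unadjusted p under 0.05, 15 were higher (6.25% of all genes) and 1 lower, and in 19 both sgWRN2 libraries were above the other 4 (14.4% of all genes). Without sgWRN3 A, 0 passed edgeR's test. The called members were PLK2, a kinase, at 13.0 and 12.6 CPM with sgWRN2 and 6.97 and 7.49 CPM with sgWRN3 (0.82, SE 0.11, adjusted p = 0.00701), and TNFRSF10D, a decoy receptor for TRAIL (0.48, SE 0.09, adjusted p = 0.0367). CDKN1A, the p21 cell cycle inhibitor, was at 179 and 173 CPM with sgCh2-2, 253 and 295 CPM with sgWRN2 and 187 and 172 CPM with sgWRN3. Its 2 sgWRN2 libraries were the highest, but the difference missed the threshold (0.61, SE 0.14, adjusted p = 0.0668). MDM2, the ligase that degrades p53, was at 1015 and 768 CPM with sgWRN2 and 729 and 858 CPM with sgWRN3, with overlapping groups (0.17, SE 0.15, adjusted p = 0.656).

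Among 51 genes of S phase and replication, 1 was lower (0.31% of all genes tested were), while 14 were lower and 0 higher at an unadjusted p under 0.05 (8.25% of all genes were lower). In 32 of them both sgWRN2 libraries were below the other 4 (15.8% of all genes). The called gene was CDC6, which loads the replicative helicase, at 61.9 and 53.7 CPM with sgCh2-2, 35.6 and 31.1 CPM with sgWRN2 and 65.1 and 57.4 CPM with sgWRN3 (-0.87, SE 0.12, adjusted p = 0.00819). The list's median was -0.18, and 48 of its 51 values were below 0. Of 52 mitotic genes, 0 were called by edgeR, 0 by limma-voom and 2 (both lower) by DESeq2, while 18 were lower at an unadjusted p under 0.05 (8.25% of all genes were). In 40 of the 52 both sgWRN2 libraries were below the other 4. The proliferation marker MKI67 was at 286 and 281 CPM with sgWRN2 and 360 and 350 CPM with sgWRN3 (-0.33, SE 0.09, adjusted p = 0.133). All 52 mitotic values were below 0, with a median of -0.26. Of 42 double-strand break repair genes 0 were called by edgeR, with a median of -0.16. At an unadjusted p under 0.05, 1 was higher (6.25% of all genes were) and 11 lower (8.25%). Of 5 RecQ helicases, WRN included, 0 were called or reached an unadjusted p under 0.05 (median -0.17). Of 35 interferon-stimulated genes 0 were called, with 4 higher (6.25% of all genes were) and 3 lower (8.25%) at an unadjusted p under 0.05.

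HIST1H1C, a linker histone, was the called member of 16 polyadenylated histone genes (median 0.48). It was at 49.6 and 51.8 CPM with sgWRN2 and 30.7 and 30.8 CPM with sgWRN3 (0.72, SE 0.12, adjusted p = 0.0139). HIST1H2BK, at 148 and 136 CPM against 104 and 105 CPM, missed the threshold (0.44, adjusted p = 0.0753).

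The same pair of guides was compared in SW48. The OVK18 fold changes do not use the SW48 libraries, but both contrasts share 1 fit and its estimate of the spread, so their calls are not independent. There 134 genes were called (0.944%), 41 higher (0.289%) and 93 lower (0.655%). In both lines 15 genes were called, all 15 in the same direction (9 higher and 6 lower in sgWRN2), which is 14.2% of the OVK18 list and 11.2% of the SW48 list. Of the 106 OVK18 genes, 83 had the same sign in SW48, against 57.5% of all genes tested. The shared genes are AGO2, LAMC1, LNPEP, NEFM, TNFRSF10D, COL4A2, CCDC8, CCDC181 and ZNF596 on the higher side and CDC6, CTDSPL, UBFD1, GPR161, TMEM133 and LOC100506548 on the lower side. Their OVK18 calls were not equally firm. UBFD1 and GPR161 each lost theirs in 17 of 26 alternatives, TNFRSF10D in 13 of 26 and COL4A2 in 9 of 22. NEFM and LAMC1 kept theirs in all 26, and the others were between these.

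LAMC1, the gamma 1 chain of laminin in basement membranes, was at 461 and 464 CPM with sgCh2-2, 847 and 839 CPM with sgWRN2, and 478 and 483 CPM with sgWRN3 in OVK18 (0.81, SE 0.09, adjusted p = 0.00259). In SW48 it was at 291 and 261, 535 and 499, and 325 and 299 CPM (0.73, adjusted p = 0.00532). AGO2, the slicing Argonaute of the microRNA pathway, was at 65.6 and 64.4, 110 and 111, and 67.8 and 63.1 CPM in OVK18 (0.76, SE 0.09, adjusted p = 0.00439) and at 54.8 and 54.5, 95.6 and 87.3, and 57.1 and 54.9 CPM in SW48 (0.71, adjusted p = 0.00659). In each line the sgWRN3 libraries of both genes lay close to the controls. NEFM reached 34.5 and 21.2 CPM with sgWRN2 in SW48, against 2.68 and 1.87 CPM with sgWRN3 (3.61, adjusted p = 0.000459). CDC6 was lower with sgWRN2 than with sgWRN3 in SW48 too, at 54.8 and 46.8 CPM against 84.2 and 83.9 CPM (-0.73, adjusted p = 0.0168).

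COL4A2, a chain of basement membrane collagen IV, was near 0 without sgWRN2 in both lines. Over 2 libraries each in OVK18 it had 0 counts in the control, 47 with sgWRN2 and 3 with sgWRN3, a ratio between the guides of 16.3 (95% counting interval 5.25 to 82.0). CCDC8, a protein of the 3-M growth complex, had 2, 54 and 3 counts, a ratio of 18.8 (6.08 to 93.8). CCDC181, a coiled-coil protein, had 5, 44 and 3 counts, a ratio of 15.3 (4.90 to 76.9).

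The test of the difference between lines called 23 genes (0.162%), 10 with the larger log2 value in OVK18 (0.0704%) and 13 with the larger value in SW48 (0.0916%). EGR1 and TXNIP were among them: in SW48, EGR1 was at 455 and 439 CPM with sgWRN2 and 389 and 361 CPM with sgWRN3, and TXNIP at 985 and 990 CPM against 806 and 896 CPM. HERPUD1 was also among them, with SW48 levels of 74.9 and 75.8 CPM against 69.6 and 66.3 CPM. The ER list's median in SW48 was 0.12 and its members called there were 0, while the mitotic list had a median of -0.72.

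**Figure D4:**
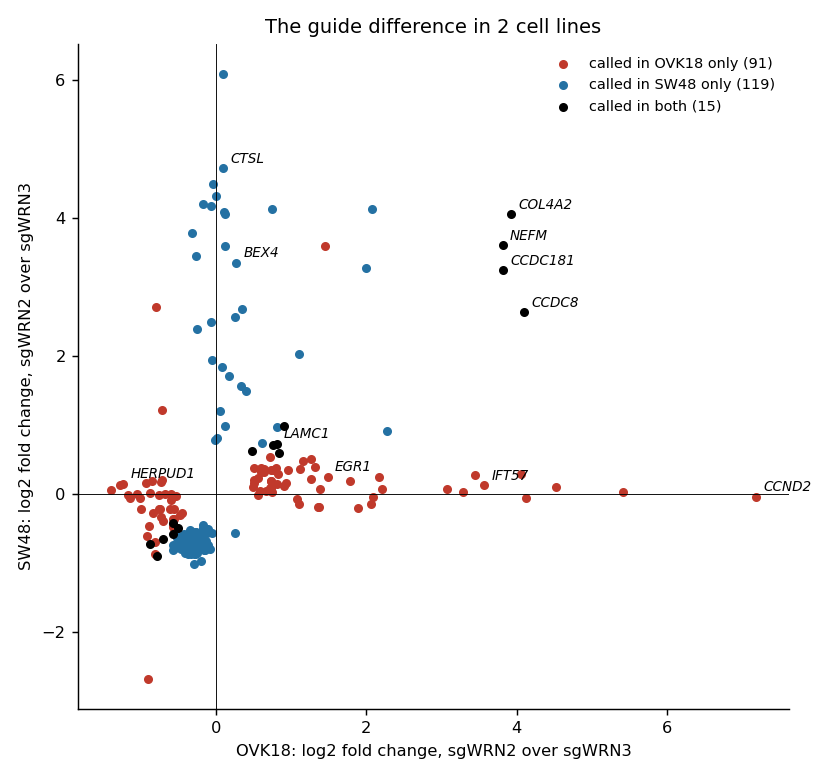
Each point is a gene called between sgWRN2 and sgWRN3 in at least 1 line, with its log2 fold change in OVK18 on the x axis and in SW48 on the y axis. The 15 black points, called in both lines, share their sign, while many coloured points lie along 1 axis, such as IFT57 and CCND2 for OVK18 and CTSL and BEX4 for SW48.

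A last set was of genes near silence in OVK18. Of the 62 higher genes, 16 had a control mean under 0.3 CPM, and 13 of these were at 2 CPM or more in SW48 controls. Prompted by this, and so after the data had been seen, all genes with an OVK18 control mean under 0.3 CPM and an SW48 control mean of at least 20 CPM were taken, a choice made on control libraries alone. They are 268 genes, of which 10 were higher in sgWRN2 (3.73%, beside 0.437% of all genes tested) and 0 lower. Nothing is read from these counts: the set holds genes that prompted it, and at such levels a gene can hardly be called lower. In 50 of them (18.7%, beside 14.4% of all genes tested) both sgWRN2 libraries were above the other 4. Their summed level was 19.3 and 18.1 CPM with sgCh2-2, 40.1 and 38.1 CPM with sgWRN2, and 17.7 and 20.2 CPM with sgWRN3. Without the 10 called genes the sums were 18.4 and 17.1, 26.9 and 27.6, and 16.7 and 18.9 CPM.

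IFT57, a subunit of the intraflagellar transport complex that builds cilia, is the first of these. It was at 0.155 and 0.248 CPM with sgCh2-2, 4.38 and 3.95 CPM with sgWRN2, and 0.261 and 0.427 CPM with sgWRN3 (3.57, SE 0.25, adjusted p = 5.40e-05), and its sgWRN2 mean was 7.25% of the SW48 control level. Over both libraries it had 197 counts with sgWRN2 and 17 with sgWRN3, a ratio of 12.1 (95% counting interval 7.35 to 21.1). DSP, the desmosomal plaque protein desmoplakin, had 59 against 7 counts, a ratio of 8.78 (4.01 to 22.8), which reached 0.111% of its SW48 level. EIF4E3, a cap-binding protein, had 40 against 4 counts, a ratio of 10.4 (3.77 to 40.1). CCND2, cyclin D2, had 38 counts against 0, at least 13.2-fold higher when sgWRN3 is set to a floor of 3 counts over its 2 libraries. The other 6 called genes of the set were FAM171A1, HTATIP2, RAI14, MAP7, TES and ARHGEF37. TSC22D3, a glucocorticoid-induced leucine zipper protein and outside this set, had 101 counts with sgWRN2 and 6 with sgWRN3, a ratio of 17.5 (7.78 to 48.9). These intervals and floors cover counting error only.

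Since SW48 libraries are in the same series, genes that define intestinal cells were read in the OVK18 sgWRN2 libraries. CDX2, HNF4A and CEACAM5 had 0 counts there in both libraries, which allows up to 0.0641 CPM by a floor of 3 counts over both. Of the 8 intestinal genes tested, KRT8 and KRT18, keratins of simple epithelia, were above the other 4 libraries in both sgWRN2 libraries. KRT8 was at 2.56 and 2.63 CPM with sgWRN2 and at 2.13 and 1.32 CPM with sgWRN3, and was not called (0.60, adjusted p = 0.310). EPCAM was at 0.280 and 0.219 CPM with sgWRN2, within or below its range with sgCh2-2 (0.233 and 0.650 CPM) and below both libraries with sgWRN3 (0.305 and 0.698 CPM), while SW48 sgWRN2 libraries had 682 and 596 CPM. The intestinal list, highest in both sgWRN2 libraries through these keratins, summed to 15.6 and 12.4 CPM with sgCh2-2, 16.8 and 17.6 CPM with sgWRN2, and 15 and 13.3 CPM with sgWRN3.

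The mirror set was taken in SW48: 301 genes under 0.3 CPM in SW48 controls and at least 20 CPM in OVK18 controls. The sgWRN2 sums were the highest here too, at 69.4 and 49.0 CPM. The sums were 17.8 and 20.7 CPM with sgWRN3 and 18.6 and 15.4 CPM with sgCh2-2. All include the genes called between the guides in SW48, 11 higher (0.289% of all genes tested were) and 0 lower. Those counts carry the same limit, and sums without the called genes were not taken. CTSL, a lysosomal protease at 38.5 to 43.0 CPM in all OVK18 libraries, was at 1.03 and 0.829 CPM with sgWRN2 and at 0 and 0.0603 CPM with sgWRN3 in SW48. COL3A1, at 383 to 455 CPM in OVK18, was at 0.0605 and 0.0638 CPM in the SW48 sgWRN2 libraries, and PDGFRA had 0 counts in both.

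**Figure D5:**
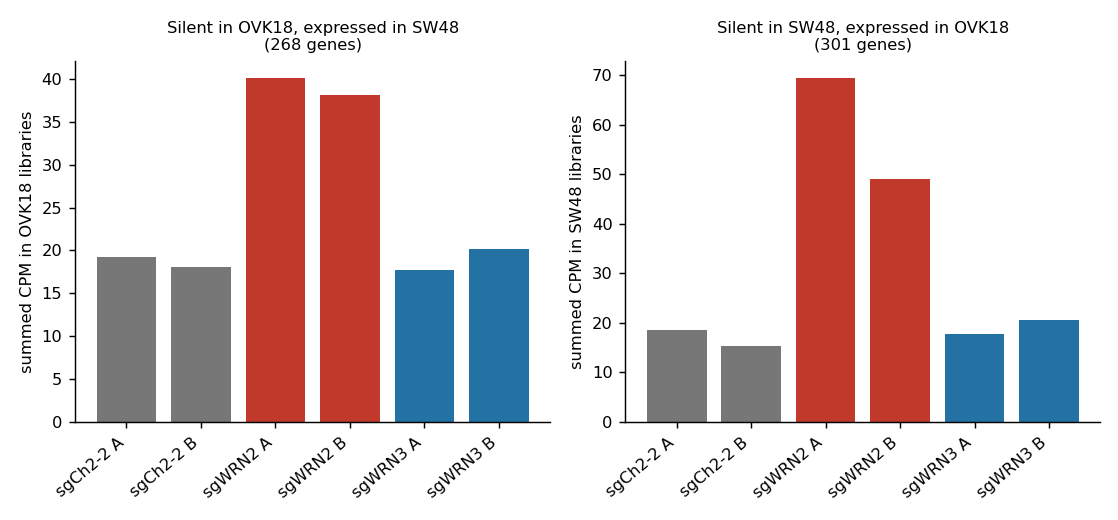
Bars give the summed CPM (linear axis from 0) of 268 genes near silence in OVK18 controls in each OVK18 library (left) and of 301 genes near silence in SW48 controls in each SW48 library (right), by guide and letter. The sgWRN2 bars are the tallest in both panels, at 40.1 and 38.1 CPM on the left and 69.4 and 49.0 CPM on the right, and the sgWRN3 bars are near the controls.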

How the data were processed

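RNA-seq gene counts of 12 libraries were analysed. Libraries were made from 100 ng of total RNA with an mRNA kit, per the labels' protocols. The authors deposited raw counts per gene; bcl2fastq 2.18, STAR 2.5, Cufflinks 2.2.1 and hg19 are named in the submitters' processing notes without a role, and annotation and strand setting are not given in the sources used here. A second table the authors deposited was read as FPKM because the counts divided by its values grow with transcript length (Spearman 0.787 over 9912 genes), and served only as an alternative. The 92 spike-in features were at 0 and left out, and 28 symbols turned into dates are not named.

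Counts were fitted in R 4.3.3 with edgeR 4.0.16: TMM, filterByExpr (14199 of 25343 genes), 6 groups over all 12 libraries, robust quasi-likelihood with 6 residual degrees of freedom, Benjamini-Hochberg adjusted p under 0.05, and standard errors as the log2 fold change over the square root of F. The fit was tested on simulated data, with 1 spread per gene for all groups and changes put only in well-counted genes. That test does not cover groups of unequal spread or changes in genes near silence. Replicates differed beyond counting error (mean chi-square 8.35 to 24.2 per gene). The highest value was that of OVK18 sgWRN2, while the fit pools the spread over all 6 groups. Low counts have exact 95% intervals, conditional on the total for ratios. Alternatives were other scalings and filters, DESeq2 1.42.0, limma 3.58.1, fewer libraries, blocks and FPKM (at least 1 in 2 libraries, pseudocounts of 1 and 0.1). Named genes are the 12 highest and 12 lowest called at 2 CPM or more, up to 4 per list by p, 8 called in both lines, 4 per direction for the difference between lines, and WRN, CDKN1A and MDM2. The comparison, lists and rules were chosen with earlier results of these data known. Guide sequences were not analysed here.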

Additional observations from a re-analysis of the deposited data

Results flagged for a closer look

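For 14 named genes the guide difference itself differed between the lines by the interaction test of the edgeR fit; values are log2, OVK18 minus SW48. EGR1 (1.233, adjusted p = 0.00309) and TXNIP (1.049, adjusted p = 0.0219) had the larger guide difference in OVK18. Their guide differences were 1.49 and 1.26 there against 0.25 and 0.21 in SW48. The control guide does not enter this test. HERPUD1 was lower in OVK18 (-1.23) and not called in SW48 (0.15), a difference of -1.376 (adjusted p = 0.0273), and LAMA3, a laminin chain, had opposite signs (-0.9424, adjusted p = 0.0385; -0.56 in OVK18 and 0.39 in SW48).

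Genes under 0.3 CPM in OVK18 controls had the larger guide difference in OVK18: IFT57 (3.436, adjusted p = 0.000844), TSC22D3 (3.758, adjusted p = 0.00513), DSP (3.004, adjusted p = 0.00688), HTATIP2 (5.389, adjusted p = 0.00377) and CCND2 (7.219, adjusted p = 0.0172). The last fitted value depends on the prior count because sgWRN3 had 0 counts. Genes under 0.3 CPM in SW48 controls had the larger guide difference in SW48: BEX4 (-3.086, adjusted p = 0.00688), CTSL (-4.619, adjusted p = 0.0273), FAM101B (-4.107, adjusted p = 0.00466), HDGFRP3 (-4.528, adjusted p = 0.0219) and WDR35 (-4.377, adjusted p = 0.0487).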

How the results depend on the processing

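The count of genes called between sgWRN2 and sgWRN3 in OVK18 (106) was 518 with no filter, 530 with DESeq2, 161 with limma-voom, 25 with the 6 OVK18 libraries alone, 17 with the 4 guide libraries alone and 165 on FPKM with a pseudocount of 1. Leaving out 1 library gave 11 (sgWRN3 A) to 100 (SW48 sgCh2-2 B). Besides the libraries named with the result, it was 70 without either OVK18 sgCh2-2 library and 67 and 60 without SW48 sgWRN2 A and B. sgWRN2 against control (113) was 439, 430 and 30 with no filter, DESeq2 and 6 libraries, and 18 (without OVK18 sgCh2-2 A) to 142 with 1 library left out. sgWRN3 against control (0) was 2 with no filter and 1 with DESeq2. The SW48 guide contrast (134) was 334, 298 and 34 in those settings and 3 (without sgWRN2 A) to 176. The difference between lines (23) was 125 with no filter, 79 with DESeq2, 10 on FPKM with a pseudocount of 1, and 5 (without OVK18 sgWRN3 A) to 23. The cause was not tested.

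The A minus B differences of OVK18 sgWRN2 and sgWRN3 had a correlation of -0.226, so the letters were not taken to pair these groups. Other groups did share a letter difference, such as OVK18 sgCh2-2 with sgWRN3 (0.39) and SW48 sgCh2-2 with sgWRN3 (0.413). With letters as a replicate block the counts were 31, 38, 43 and 10 for the OVK18 guides, sgWRN2 against control, the SW48 guides and the difference between lines. A crossed replicate block, with letters A and B of sgWRN2 swapped in both lines, was added after seeing the data. With it the counts were 1790, 1801, 709 and 241, and 2 for sgWRN3 against control. Because the swap was made with the data known, its larger counts are no support for the calls.

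Of 65 called genes followed over 26 alternatives, 64 kept their direction in each that gave a value. The exception was PDK3, at 0.4106 and 0.4329 on FPKM with pseudocounts of 1 and 0.1. MDM2, not called, ranged from -0.01272 (without OVK18 sgWRN2 A) to 0.3818 (without OVK18 sgWRN2 B) when 1 library was left out. Calls held in every alternative for NEFM, EGR1, TXNIP, ARRDC4, LAMC1, IFT57, HTATIP2 and, where fitted, TSC22D3. The immediate-early list had 1 called gene without either sgWRN3 library and 2 to 16 in the other alternatives, and the ER list 0 without sgWRN3 A and 1 without sgWRN2 B, with the 6 or 4 libraries alone and on FPKM. Their medians stayed above 0 and below 0 in all 26. The 16 on the immediate-early list came with the crossed replicate block. The 2 libraries per group limit every call.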
